A study of Mus musculus with 2 samples.

Results

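The C-type lectin receptor genes of mouse leukaemia cells were described from 2 one-colour arrays. The members were the genes whose array name starts with Clec, Klr or Cd209, together with Mrc1, Mrc2, Ly75, Olr1, Cd69 and Cd72: 74 of 27370 genes, read by 104 probes. The tissue was bone marrow of female mice with an acute myeloid leukaemia that carried the MLL-AF9 fusion and a YFP reporter. Cells positive for YFP, Mac-1 and c-Kit were sorted as leukemia-initiating cells, the fraction that can start the disease again. One array held Jam3-null cells and the other held WT cells, and the label of each names 3 mice. The mouse strain, the ages, how the RNA of the mice was pooled and how Jam3 (junctional adhesion molecule 3) was deleted are not given in the sources used here. With 1 array per genotype there is no replicate and no test across samples, so every difference below describes these 2 arrays only.

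C-type lectin receptors carry a fold that was named for calcium-dependent sugar binding, although many members bind proteins or lipids. On myeloid cells they sense fungal walls, mycobacterial lipids and damaged cells. Receptors such as Dectin-1 signal through a tyrosine motif of their own, whereas Dectin-2 and Mincle borrow the motif of the adaptor Fcer1g, and both routes use the kinase Syk. Others carry an inhibitory motif that recruits phosphatases. The Klr genes encode the lectin-like receptors of natural killer cells, which read MHC class I and related ligands, and the Clec2 genes encode ligands of one branch of them. Most of these genes sit together on mouse chromosome 6, and 50 of the 74 members had their probe there.

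Of the 43379 spots that are not controls, 55.0% passed the scanner software's mark for a signal well above background with Jam3-null RNA, against 61.8% with WT RNA. A gene with such a spot is called seen below. Differences are log2 Jam3-null minus WT of the processed signal, after each array was divided by its 75th percentile. A gene took the values of its brightest probe. Brightness over background sets the precision, and the error-model SD of a log2 difference was between 0.20 and 0.37 for the members measured on both arrays; it covers measurement error only. Jam3 was below the background mark in both genotypes (28.1 in Jam3-null cells and 5.09 in WT cells), so it did not check the labels. Of the sort markers, Kit had signals of 1237.4 in Jam3-null cells and 1243.9 in WT cells, and Itgam, the Mac-1 chain, had 3703.2 and 301.8 in the same order. Both markers were therefore seen in both samples, Kit at 0.09 and Itgam at 3.71 in log2. The pan-leukocyte gene Ptprc was at 0.61, and Hoxa9 and Meis1, genes that MLL fusions keep active, were at 0.73 and 0.81.

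Of the 74 members, 24 (32.4%) were seen on both arrays and so measured, where 52.4% of all genes were. A further 3 (4.05%) were seen with Jam3-null RNA only and 10 (13.5%) with WT RNA only, and 37 were seen on neither. For all genes the shares were 1.86%, 8.98% and 36.7%. Members seen on 1 array gave a bound of at least 2-fold higher in 3 cases and lower in 2. These are 4.05% and 2.7% of the members, where all genes gave 1.8% and 1.45%. The bounds are nominal and not strict limits, as set out below with Mrc2. A measured gene is called higher or lower from a difference of 2-fold. Among the 24 measured members, 9 (37.5%) were higher and 2 (8.33%) lower in Jam3-null cells. Over all 14351 measured genes, 10.3% were higher and 8.65% lower. These are 1477 and 1241 genes, and cyclic loess, a normalization that moved the median of all genes by 0.14, gave 1771 and 979. The median log2 difference was 0.76 over the measured members, from -1.76 to 4.53, against -0.08 over all measured genes. Of 11 measured members in the DCIR, Dectin-2 and Dectin-1 clusters with Clec5a, 6 were higher and 1 was lower. Of 32 Klr genes 2 were measured and 0 were called, so nearly all measured members (22 of 24) were outside the Klr genes.

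**Figure D1:**
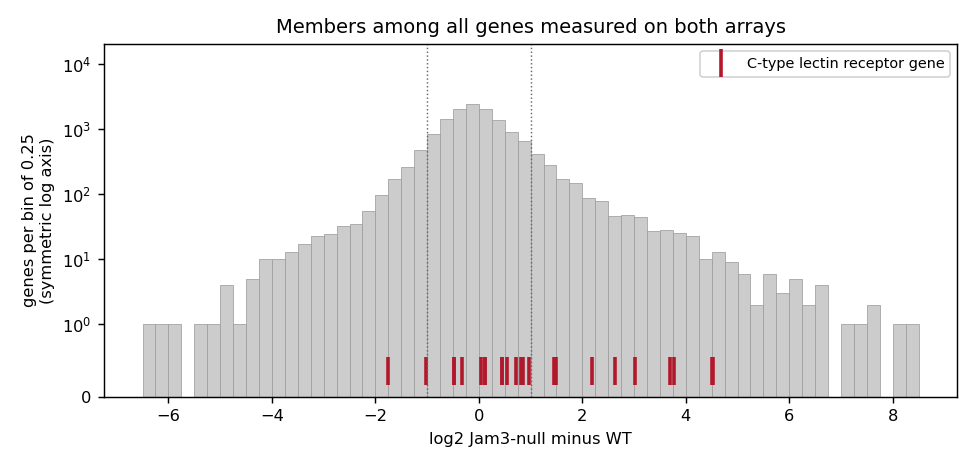
Grey bars count the 14351 genes measured on both arrays by their log2 difference, Jam3-null minus WT, in bins of 0.25 on a symmetric log axis, and red ticks mark the 24 measured C-type lectin receptor genes. Of the ticks, 9 lie right of the upper dotted line (2-fold higher) and 2 left of the lower one.

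The DCIR and Dectin-2 cluster on chromosome 6 held the 2 largest positive differences of the family and also 1 of its 2 lower genes. DCIR is an inhibitory receptor of dendritic cells and other myeloid cells, and its relatives lie side by side with Dectin-2 and Mincle. Of 7 members 6 were measured, 3 of them higher and 1 lower, with a median of 2.20. The 3 higher genes were neighbours among the members: Clec4a3 (DCIR3), Clec4b1 (DCAR, an activating receptor that pairs with Fcer1g) and Clec4a2 (DCIR1).

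The promoters of these 3 neighbours, and of Clec4d and Clec4e further along, are printed because the 5 genes share a stretch of chromosome and had different values. Clec4n, which lies between Clec4a2 and Clec4d, had no promoter window available. Each is the RefSeq window (GRCm38.p6) from 250 bases before to 50 after the start, 5′ to 3′ on the gene's strand. Capitals mark matches on either strand to the ETS core GAGGAA bound by the myeloid factor PU.1, to the C/EBP pattern TTGCNNAA or to an interferon-response pattern, GAAA repeated after 2 free bases.
Clec4a3 (chr6:122952265-122952564, plus strand): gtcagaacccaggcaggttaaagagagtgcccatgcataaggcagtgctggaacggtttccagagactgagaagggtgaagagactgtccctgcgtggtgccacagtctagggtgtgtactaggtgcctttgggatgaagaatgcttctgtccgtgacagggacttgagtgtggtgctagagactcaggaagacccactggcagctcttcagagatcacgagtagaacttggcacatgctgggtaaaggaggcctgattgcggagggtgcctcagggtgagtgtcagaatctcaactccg
Clec4b1 (chr6:123049712-123050011, plus strand): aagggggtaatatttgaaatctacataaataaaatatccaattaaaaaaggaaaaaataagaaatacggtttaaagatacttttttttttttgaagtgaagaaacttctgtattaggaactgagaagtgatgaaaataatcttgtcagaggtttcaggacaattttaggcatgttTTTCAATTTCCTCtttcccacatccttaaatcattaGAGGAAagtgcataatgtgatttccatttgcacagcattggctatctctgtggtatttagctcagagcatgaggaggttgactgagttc
Clec4a2 (chr6:123122440-123122739, plus strand): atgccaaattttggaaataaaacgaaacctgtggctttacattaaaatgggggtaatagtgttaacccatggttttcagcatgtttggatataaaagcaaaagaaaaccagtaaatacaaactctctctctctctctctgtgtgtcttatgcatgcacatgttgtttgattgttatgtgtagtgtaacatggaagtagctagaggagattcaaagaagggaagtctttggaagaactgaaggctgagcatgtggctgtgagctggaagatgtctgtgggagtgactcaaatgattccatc
Clec4d (chr6:123261857-123262156, plus strand): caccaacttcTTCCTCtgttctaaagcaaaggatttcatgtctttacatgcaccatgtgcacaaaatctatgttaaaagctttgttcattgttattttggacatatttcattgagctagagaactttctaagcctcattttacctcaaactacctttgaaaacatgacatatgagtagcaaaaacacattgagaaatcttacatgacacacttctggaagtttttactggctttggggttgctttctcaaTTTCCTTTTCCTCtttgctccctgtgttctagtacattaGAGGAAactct
Clec4e (chr6:123289822-123290121, minus strand): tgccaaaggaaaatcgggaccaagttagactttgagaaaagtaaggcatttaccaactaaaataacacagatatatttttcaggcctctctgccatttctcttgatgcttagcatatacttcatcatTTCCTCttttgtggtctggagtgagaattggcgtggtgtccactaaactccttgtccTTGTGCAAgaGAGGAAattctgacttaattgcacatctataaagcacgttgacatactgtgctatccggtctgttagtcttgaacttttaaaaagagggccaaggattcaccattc
The GAGGAA core had 2 matches in Clec4b1, 3 in Clec4d, 2 in Clec4e and 0 in Clec4a3 and Clec4a2. The C/EBP pattern matched only in Clec4e, and the interferon pattern in Clec4b1 and Clec4d, where each match overlaps one of GAGGAA. Of 32851 promoter windows in the table, 28.3% hold GAGGAA, 10.8% TTGCNNAA and 3.44% the interferon pattern. Of 20 measured members with a promoter in the table, 11 hold GAGGAA, among them 5 of the 9 higher genes (Clec4b1, Clec5a, Clec7a, Clec12a and Clec18a). Such a match is a run of letters and not a shown binding site. Among the printed windows, those without any match and one with several belong to the 3 higher neighbours.

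Clec4b1 had a signal of 31481.5 in Jam3-null cells and 1488.4 in WT cells, 22.6-fold higher (log2 4.50 ± 0.20, error-model SD). Its probe lies at chr6:123021454-123021513 (mm9). Clec4a2 had 31158 in Jam3-null cells and 1438.6 in WT cells, 23.1-fold higher (log2 4.53). These values of the pair are close to each other, and the accessions that the array lists for this Clec4a2 probe (chr6:123090676-123090735) belong to Clec4a2 and Clec4b1 both, so it does not tell them apart. A second Clec4a2 probe names no other gene and spans 11257 bases of the genome (chr6:123078029-123089285), so it crosses at least 1 intron. It had 6031.5 in Jam3-null cells and 311.4 in WT cells, 20.7-fold higher, while a further Clec4a2 probe was dim on both (31.7 and 29.8, log2 0.18 ± 0.38). The 2 brighter probes whose accessions name only 1 of these genes are shown for that reason, as printed on the array. The dim Clec4a2 probe also names Clec4a2 alone and is not shown.
Clec4a2, intron-crossing probe: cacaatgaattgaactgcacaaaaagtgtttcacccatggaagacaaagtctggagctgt
Clec4b1 probe: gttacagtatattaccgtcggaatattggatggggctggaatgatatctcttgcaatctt

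Clec4a3 had 296.6 in Jam3-null cells and 24.4 in WT cells, 13.0-fold higher, or 4.13-fold after normexp background correction, which adds an offset of 50 to each signal and so draws dim genes together. The next genes along the cluster had smaller differences. Clec4n, which encodes Dectin-2, a receptor for fungal mannans, had 60.1 in Jam3-null cells and 39.3 in WT cells (log2 0.71 ± 0.27). Clec4e, which encodes Mincle, a receptor for mycobacterial cord factor and for damaged cells, had 1666.9 and 1308.0 in the same order (log2 0.45 ± 0.20). Clec4d, which encodes MCL, a partner of Mincle, had 1694.0 in Jam3-null cells and 3684.6 in WT cells, 2.04-fold lower (log2 -1.03 ± 0.20). That value sits at the threshold, and under 4 of 8 other processings it was less than 2-fold lower. Clec4a1, at the other end of the cluster, was below background on both arrays (6.44 and 3.94). Along the 353.5 kb between the first and last probe, the large differences thus lay among the DCIR relatives and not at Dectin-2, MCL and Mincle.

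**Figure D2:**
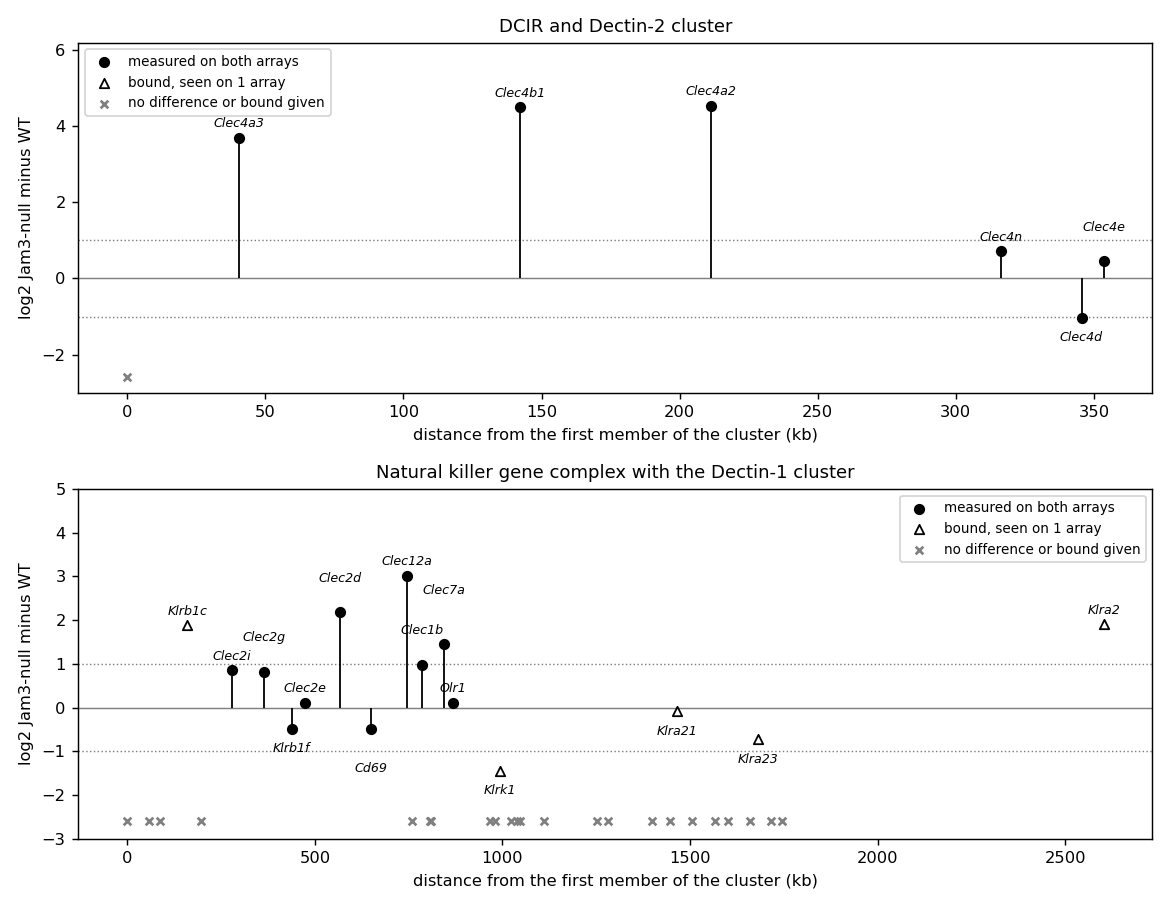
The log2 difference, Jam3-null minus WT, is plotted against the distance in kb from the first member of each of 2 clusters on chromosome 6, with triangles for bounds and crosses along the bottom, at no value, for members without a difference or bound. In the upper panel Clec4a3, Clec4b1 and Clec4a2 stand between 3.70 and 4.53, and Clec4n, Clec4d and Clec4e between -1.03 and 0.71.

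The Dectin-1 cluster and Clec5a hold receptors that signal through Syk or inhibit it. Of these 8 members 5 were measured, 3 were higher, 0 were lower, and the median was 1.45. Clec7a, which encodes Dectin-1, the receptor for fungal beta-glucan, had 3243.1 in Jam3-null cells and 1270.8 in WT cells, 2.73-fold higher (log2 1.45 ± 0.20). Clec5a encodes MDL-1, which pairs with the adaptor Tyrobp (DAP12), and had 3485.5 in Jam3-null cells and 596.3 in WT cells, 6.24-fold higher (log2 2.64 ± 0.20). Its second probe, which crosses an intron, gave 8.08-fold, or 3.02-fold after normexp correction. A further Clec5a probe was below background on both arrays. Clec12a, an inhibitory receptor for uric acid crystals and a surface marker of human acute myeloid leukaemia, had 137.3 in Jam3-null cells and 18.2 in WT cells, 8.06-fold higher, or 2.67-fold after normexp correction.

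The other genes of this cluster differed by less. Clec1b encodes CLEC-2, the podoplanin receptor of platelets, and had 94.7 in Jam3-null cells and 51.5 in WT cells. It was 1.96-fold higher, just short of the threshold, or 1.39-fold after normexp correction. Of 9 platelet and megakaryocyte markers 2 were measured, Gp9 at 2.08 and Vwf at 1.96. The integrin chain gene Itga2b (5.79 in Jam3-null cells, 103.7 in WT cells) was seen in WT cells only, at least 3.75-fold lower, as was Pf4, at least 2.24-fold lower. Gp6 was seen in Jam3-null cells only, at least 2.08-fold higher, so these markers differed in both directions. Their summed signal was 952.6 in Jam3-null cells and 433.0 in WT cells, and their part in the Clec1b value was not tested. Olr1, which encodes LOX-1, a receptor for oxidized low density lipoprotein, had 1403.3 and 1392.9 on the Jam3-null and WT arrays (log2 0.11 ± 0.20). Clec1a, Clec9a (DNGR-1, which marks cross-presenting dendritic cells) and Clec12b were below background, between 5.24 and 13.3 in Jam3-null cells and between 3.15 and 4.58 in WT cells. Clec7a and Olr1 are next to each other among the members in the plot of differences along chromosome 6, and only Clec7a was called higher.

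**Figure D3:**
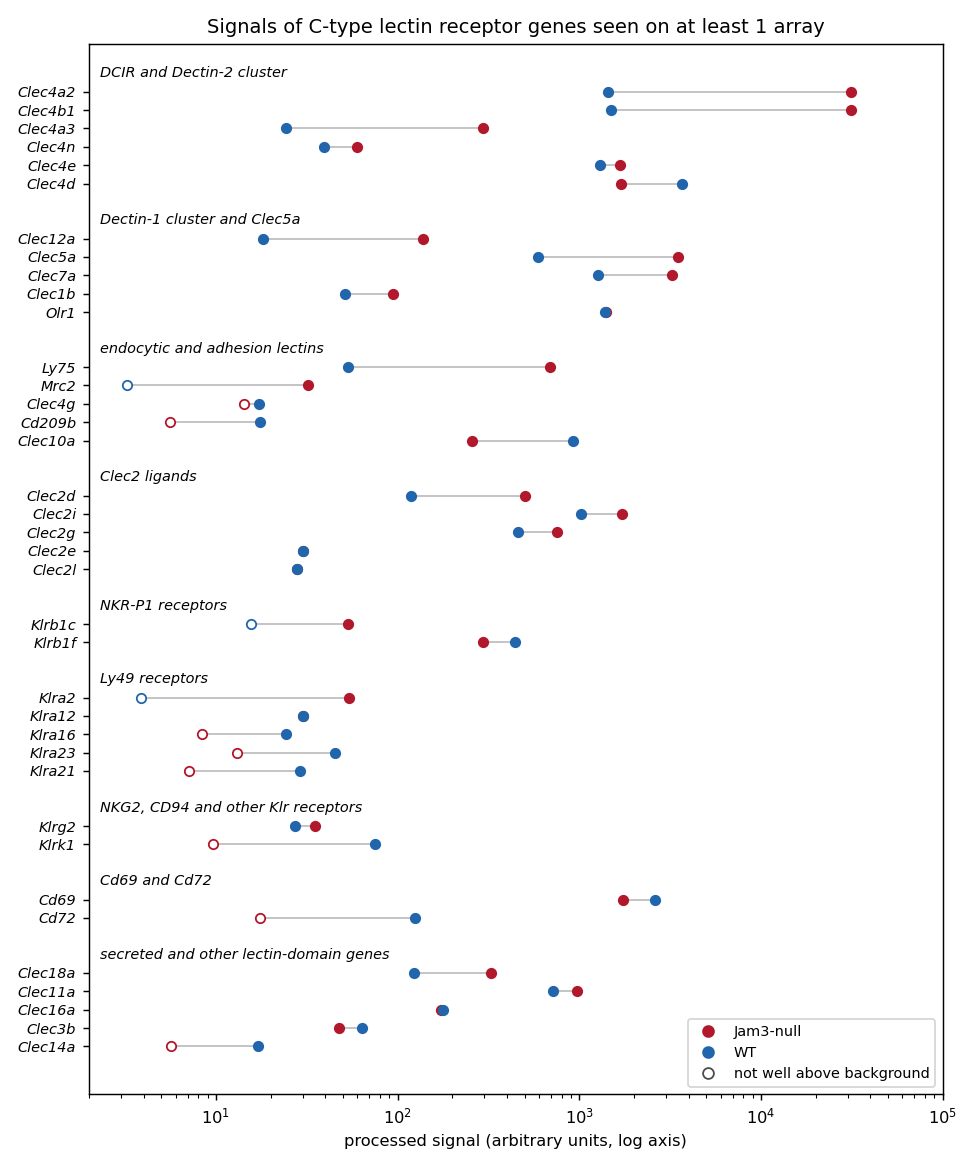
Processed signals on a log axis of the 37 members seen on at least 1 array, grouped by role, with Jam3-null in red and WT in blue and open circles for values not well above background. Clec4a2 and Clec4b1 show the widest gaps among genes measured on both arrays, while Clec4d and Clec10a have their blue point clearly on the right.

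Endocytic and adhesion lectins take up glycoproteins or bind other cells. Of 13 such members only 2 were measured on both arrays, and these differed in opposite directions. Ly75 encodes DEC-205, an antigen uptake receptor of dendritic cells that is also found on other leukocytes. It had 689.1 in Jam3-null cells and 53.5 in WT cells, 13.7-fold higher, or 7.40-fold after normexp correction. A second Ly75 probe gave 2.85-fold, or 1.67-fold after that correction. Clec10a encodes MGL1, a galactose-binding receptor of macrophages and dendritic cells, and had 257.5 in Jam3-null cells and 928.6 in WT cells, 3.38-fold lower (log2 -1.76 ± 0.21). Mgl2, its close relative, which the naming rule does not take, had 1043.6 in Jam3-null cells and 388.8 in WT cells, 2.87-fold higher. The pair of galactose lectins thus differed in opposite directions.

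Mrc2 encodes Endo180, a collagen uptake receptor, and was seen in Jam3-null cells only (32.3, against 3.24 in WT cells), at least 2.24-fold higher, or 1.65-fold apart after normexp correction. Such a bound sets the bright value against the higher of the dim probe's own signal and the dimmest signal there that still passes the background mark. That mark differs between spots, and genes seen on neither array reached 34.6 in Jam3-null cells and 23.9 in WT cells. Every bound given as "at least" is therefore nominal, and the true difference could be smaller. Both other Mrc2 probes were below background. Mrc1, the macrophage mannose receptor, was below background on both arrays (10.3 and 5.79), as were Clec4f of Kupffer cells and 6 of the 7 Cd209 genes, the mouse relatives of DC-SIGN. Cd209b (5.60 in Jam3-null cells, 17.6 in WT cells) and Clec4g, the liver sinusoidal lectin (14.2 in Jam3-null cells, 17.3 in WT cells), were seen in WT cells only and gave no bound.

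The Clec2 genes encode ligands of the NKR-P1 receptors. Of 6 members 4 were measured, 1 called higher and 0 lower. Clec2d (Clr-b, the ligand of the inhibitory receptor NKR-P1B, broadly found on blood cells) had 501.7 in Jam3-null cells and 118.7 in WT cells, 4.52-fold higher (log2 2.18 ± 0.21). Clec2i had 1718.1 and 1017.1 in the same order, 1.80-fold higher, and Clec2g had 757.9 and 459.1, 1.76-fold higher. These probes of Clec2g and Clec2i share 51 identical bases in an aligned stretch of 56, so the 2 values are uncertain as separate measurements. A second Clec2g probe was below background on both arrays (5.55 in Jam3-null cells, 3.23 in WT cells). Clec2e was dim on both arrays (30.2 and 30.0, log2 0.11 ± 0.37). Clec2l, with 28.1 in Jam3-null cells and 28.0 in WT cells, passed the background mark in WT cells only and gave no bound, and Clec2h was below background on both (6.85 and 8.09).

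Most receptor genes of natural killer cells were below background on both arrays. Of 32 Klr genes 23 were seen on neither array, 2 on both, 2 in Jam3-null cells only and 5 in WT cells only. Klrb1f, the receptor NKR-P1F, had 294.0 in Jam3-null cells and 440.4 in WT cells (log2 -0.49 ± 0.21), and a second, dim probe gave -0.12 ± 0.38. Klrg2 had 35.2 and 27.4 (log2 0.45 ± 0.34). Neither was 2-fold apart. The other NKR-P1 genes without a seen probe, Klrb1, Klrb1a and Klrb1b, were at most 8.76 in Jam3-null cells and 3.34 in WT cells. Over the 2601.7 kb of the natural killer gene complex, which also holds the Dectin-1 cluster, 10 of 38 members were measured, 3 of them higher (Clec2d, Clec12a and Clec7a) and 0 lower.

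Klra2 encodes Ly49B, an inhibitory receptor known from myeloid cells. It was seen in Jam3-null cells only, with 53.8 against 3.88 in WT cells, at least 3.73-fold higher, and its second probe was likewise seen only there (36.6, against 3.17). Klrb1c, the gene of the NK1.1 antigen, was also seen in Jam3-null cells only (53.6, against 15.6 in WT cells), 3.67-fold higher. That value is the plain difference from its own dim WT signal and not a minimum, and its second probe was below background on both arrays. Klrk1, which encodes NKG2D, was seen in WT cells only (9.66 in Jam3-null cells, 75.4 in WT cells), at least 2.73-fold lower, and its second probe was also below background on both. After normexp correction, which draws dim signals together, the differences of these 3 genes came to 1.64-fold for Klra2, 1.67-fold for Klrb1c and 1.82-fold for Klrk1.

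In the Ly49 group of 18 genes, 0 were measured on both arrays and 13 were seen on neither, with signals from 5.26 to 19.1 in Jam3-null cells and from 3.16 to 14.2 in WT cells. A further 4 were seen in WT cells only. Klra23 had 13.1 in Jam3-null cells and 45.4 in WT cells, at least 1.65-fold lower, and Klra21 had 7.09 and 29.2, at least 1.06-fold lower. Klra16 (8.43 and 24.4) and Klra12 (30.0 and 30.1) gave no bound. Ly49 genes are near-identical copies whose number varies between mouse strains, and the accessions of the Klra12, Klra16 and Klra23 probes name other Klra genes, so these signals are not assigned to single genes with certainty. The NKG2 and CD94 genes Klrc1, Klrc2, Klrc3 and Klrd1 were below background, as were Klre1, Klri2 and Klrg1, at most 26.7 in Jam3-null cells and 16.6 in WT cells.

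Markers of natural killer cells outside the family were partly seen. Of 10 such genes 4 were measured. Nkg7, a granule gene of cytotoxic cells, was higher with 15159.8 in Jam3-null cells and 4525.9 in WT cells. Gzmb, which encodes granzyme B, was lower with 61.4 and 230.0. The transcription factor gene Tbx21 (44.4 in Jam3-null cells, 31.7 in WT cells) and the adaptor gene Sh2d1b1 (805.6 in Jam3-null cells, 709.0 in WT cells) were seen on both arrays and were less than 2-fold apart. Of the other defining genes, Ncr1, Eomes, Gzma and Prf1 were below background on both arrays, between 5.96 and 8.40 in Jam3-null cells and between 3.99 and 7.06 in WT cells. The summed signal of the list was 16126.7 in Jam3-null cells and 5543.9 in WT cells, and Nkg7 made up most of it. Fewer cells of a type and less RNA per cell cannot be told apart in such bulk samples.

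Cd69 and Cd72 are lymphocyte receptors that other blood cells use as well. Cd69, an early activation antigen that holds back the exit receptor S1PR1, had 1738.8 in Jam3-null cells and 2614.7 in WT cells (log2 -0.49 ± 0.20). Cd72, an inhibitory receptor of B cells, was seen in WT cells only, with 17.4 in Jam3-null cells and 125.4 in WT cells, at least 4.54-fold lower, or 2.16-fold apart after normexp correction. A second Cd72 probe was likewise seen only there (5.68 in Jam3-null cells, 65.3 in WT cells). Of 8 B cell markers 3 were measured, among them the surrogate light chain gene Vpreb1 at 114.6 and 2069.3 (log2 -4.08) and Cd79b at -0.44. Ms4a1 (5.13 in Jam3-null cells, 36.9 in WT cells) and Ebf1 (6.64 and 33.6) were seen in WT cells only. Their bounds were at least 1.34-fold and 1.22-fold lower. Pax5 and Cd79a were below background on both arrays. The summed signal of that list was 7958.8 in Jam3-null cells and 13432.5 in WT cells, and Cd79b made up most of it. The part of these markers in the Cd72 value was not tested.

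Secreted and other lectin-domain genes made up the last 6 members, of which 4 were measured and 1 was higher. Clec18a, a secreted protein with a lectin domain, had 326.3 in Jam3-null cells and 123.1 in WT cells, 2.83-fold higher. Clec11a, a secreted growth factor of blood and bone progenitors, had 975.7 and 714.0 (log2 0.55 ± 0.20), and Clec3b, which encodes the plasminogen-binding tetranectin, had 47.4 and 63.4 (log2 -0.33 ± 0.27). Clec16a, which despite its name is a regulator of autophagy and not a surface receptor, had 172.7 and 178.6 (log2 0.05 ± 0.21). Clec14a, a gene of endothelial cells, was seen in WT cells only at 17.1 (5.64 in Jam3-null cells), with no bound, and Cdh5, Emcn and Tie1 of the endothelial list were below background on both. Clec3a, the last member, was below background too (6.33 and 3.88). Pecam1, the only measured endothelial marker and one that blood cells also carry, had 228.6 in Jam3-null cells and 784.0 in WT cells, 3.22-fold lower. It made up most of the summed signal of the 7 endothelial markers, 300.5 in Jam3-null cells and 835.8 in WT cells.

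**Figure D4:**
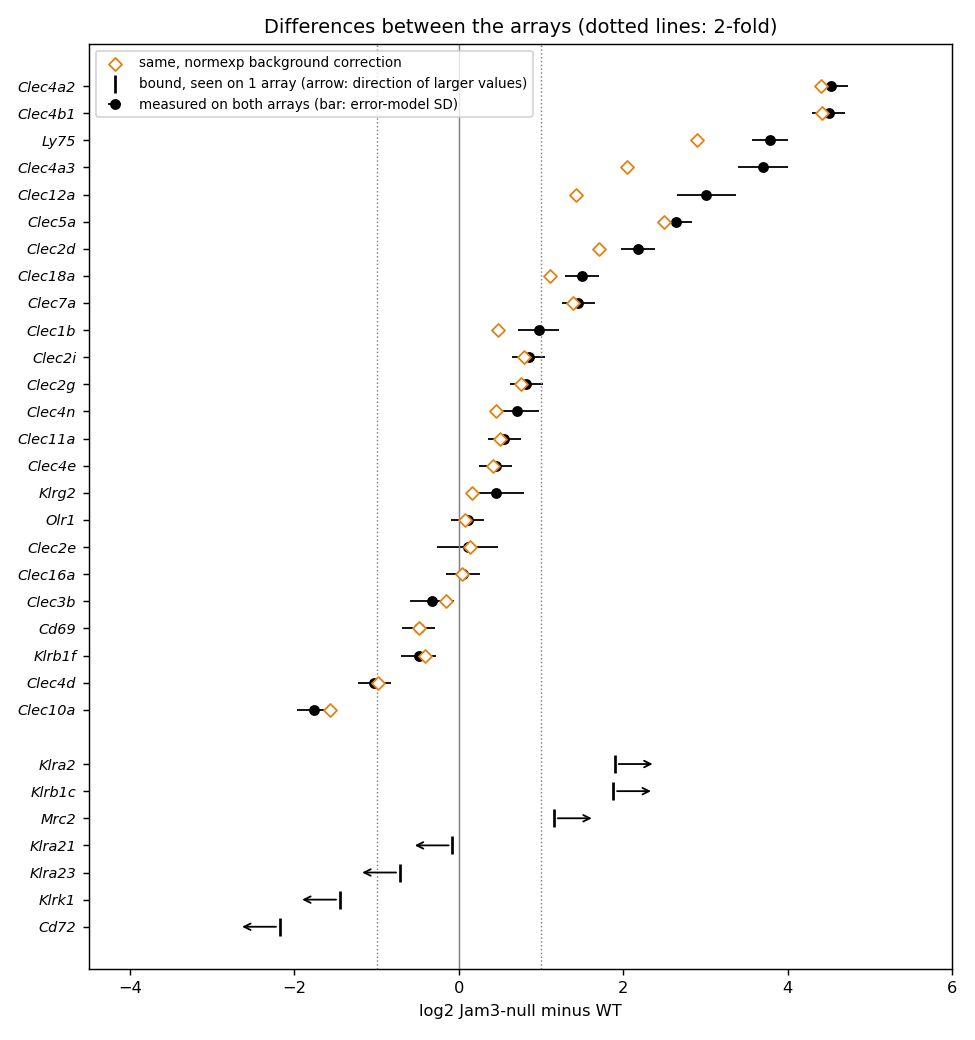
Points give the log2 difference, Jam3-null minus WT, of the 24 members measured on both arrays with the error-model SD as bars, diamonds the same after normexp correction, and arrows start at the bounds of 7 members seen on 1 array. The diamonds of Ly75, Clec4a3 and Clec12a lie furthest left of their points and still right of the 2-fold line.

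The adaptors Fcer1g and Tyrobp and the kinase Syk differed by less than 2-fold, while the Src-family kinases Fgr and Lyn were higher in Jam3-null cells. Of 23 listed signalling genes 22 were matched by name and 21 measured, 5 were higher and 1 lower, with a median of 0.30. Fcer1g, the adaptor of Dectin-2, Mincle and DCAR, had 53574.1 in Jam3-null cells and 44327.2 in WT cells (log2 0.37). Tyrobp, the adaptor of MDL-1, had 126400.6 and 109770.4 (log2 0.30), and Syk had 2892.8 and 2840.3 (log2 0.12). Hcst, which encodes DAP10, the adaptor of NKG2D, had 15710.0 and 8176.9, 2.05-fold higher, or 1.99-fold after normexp correction.

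Src-family kinases phosphorylate the tyrosine motifs of these receptors. Fgr had 2169.5 in Jam3-null cells and 46.3 in WT cells, 50.1-fold higher, or 23.8-fold after normexp correction. Lyn had 7351.3 and 3484.4, 2.25-fold higher. Of the scaffold proteins downstream, Lcp2 (SLP-76) was 3.18-fold higher and Lat2 (NTAL) 4.50-fold lower, with 955.3 in Jam3-null cells and 4594.0 in WT cells. The phosphatase genes Ptpn6 and Ptpn11 were at 0.51 and -0.29.

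Of 23 other genes with a C-type lectin domain, outside the naming rule, 11 were measured, 1 was higher (Mgl2) and 3 lower, with a median of -0.11. The 3 lower genes were Prg2, the major basic protein of eosinophils, 6.04-fold, Cd93, a receptor of early progenitors and endothelium, 2.50-fold, and Thbd, which encodes thrombomodulin, 2.36-fold. Vcan was seen in Jam3-null cells only (89.3, against 5.24 in WT cells), at least 6.18-fold higher, or 2.19-fold apart after normexp correction. Layn was seen in WT cells only (5.24 in Jam3-null cells, 58.8 in WT cells), at least 2.13-fold lower, or 1.73-fold apart after that correction. The difference between this group of other lectin-domain genes and the members was not tested.

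Genes of maturing neutrophils differed in the same direction as most myeloid lectins. All 10 neutrophil maturation markers were higher (median 3.13), among them Fcnb at 6.63, Camp at 4.92, Ngp at 4.83 and Mmp9 at 4.66, with a summed signal of 993922.1 in Jam3-null cells and 176165.2 in WT cells. Of 10 macrophage markers 8 were measured, 4 of them higher (among them Adgre1 at 2.03, Csf1r at 1.88 and C1qc at 1.60) and Cd163 lower at -1.47 (median 1.28, summed signal 8769.4 and 5930.0). Of 10 dendritic cell markers 6 were measured, 0 higher and 3 lower (Flt3 at -3.51, H2-Ab1 at -1.46 and Itgax at -1.20). Xcr1, Cd74 and Zbtb46 were at 0.53, 0.52 and -0.36. The summed signal of that list was 1636.8 in Jam3-null cells and 6325.7 in WT cells. Flt3, with 291.2 in Jam3-null cells and 3534.4 in WT cells, made up most of the WT sum. Of 7 basophil and mast cell markers 4 were measured and all 4 were lower (Cpa3 at -3.60, Gata2 at -3.21, Hdc at -2.26 and Mcpt8 at -1.18), with a summed signal of 5227.8 in Jam3-null cells and 30200.6 in WT cells. Of 10 T cell markers 6 were measured, Lat higher at 2.14, Lck lower at -1.03, and Cd5 and Cd4 at -0.42 and -0.25. Cd8b1 (84.5 in Jam3-null cells, 5.97 in WT cells) and Cd3d (71.2 and 13.3) were seen in Jam3-null cells only. Their bounds were at least 5.86-fold and 4.93-fold higher. The summed signal of the T cell list was 807.5 in Jam3-null cells and 599.3 in WT cells. After normexp correction C1qc, Cd163, Itgax, Lck and Cd3d were less than 2-fold apart. The part of these marker genes in the lectin values was not tested.

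**Figure D5:**
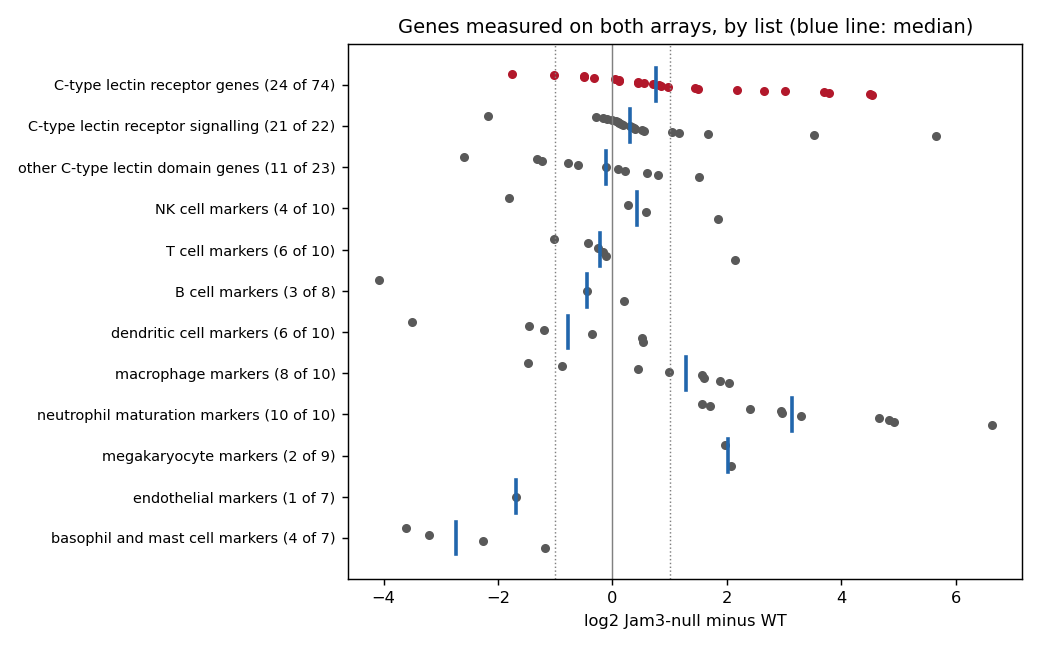
Each point is the log2 difference, Jam3-null minus WT, of a gene measured on both arrays, the vertical spread within a row has no meaning, and the counts give measured genes of genes found. The red row holds the C-type lectin receptor genes (median 0.76), and the neutrophil maturation row lies right of the 2-fold line throughout.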

How the data were processed

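RNA of the sorted cells was labelled with Cy3 and hybridized to 1 array per genotype, per the labels' protocols. Spot intensities were deposited on a linear scale, background-subtracted and detrended within each array by the software Feature Extraction (version 10.7.3.1 per the file headers and 10.7 per the submitters' processing notes), and dim spots hold a surrogate value. Both arrays share 1 slide, per the file headers. The log2 values of the authors' deposited table tracked the log2 processed signals at a Pearson r of 0.999 across probes for each array. How the table was normalized is not given here, and it served as an alternative.

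Outlier-flagged spots were left out (151 for Jam3-null and 163 for WT, 0 of them members). A gene needed its probe well above background on both arrays for a difference, and on 1 array for a bound. The error-model SD comes from the deposited error of each intensity. No test across samples was possible. Members seen on an array were named with both signals, and of each gene list up to 4 measured genes with the largest differences, the receptor adaptors, Syk and the sort markers. Some markers seen on 1 array or neither were also named, chosen after their values were seen, and some genes that the rule takes are not reported here. Members, lists and rules were chosen with earlier results of these data known. Probe coordinates are those of the files (mm9), and promoters are RefSeq windows of GRCm38.p6. Of the 74 member names 68 were found in the RefSeq gene table. Alternatives were normexp correction, other scalings and normalizations, the authors' table, other filters on dim probes and spots, other probe rules and fold thresholds of 1.5 and 3. The gene-level step was tested on simulated data. Normexp, quantile and cyclic loess used limma 3.58.1 in R 4.3.3, and the rest used pandas 2.3.3 and Biopython 1.88 under Python 3.11.15.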

Additional observations from a re-analysis of the deposited data

How the results depend on the processing

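Of the 11 members at least 2-fold apart, 10 kept that call under 8 other processings (normexp correction, quantile normalization, cyclic loess, median and spike-in scaling, the authors' table, mean of a gene's probes and outlier spots kept). The exception was Clec4d: under normexp correction, quantile normalization, cyclic loess and the authors' table its difference was less than 2-fold and 1 member was lower in place of 2. Clec1b passed 2-fold with cyclic loess, which gave 10 higher members, and was 1.39-fold higher after normexp correction. The median of the members was 0.49 after normexp correction. With no filter on dim probes 18 members were higher and 10 lower, counting surrogate values of dim spots. A stricter filter left 8 members, 3 higher and 1 lower, and with members at their bound 12 were higher and 4 lower. At a threshold of 3-fold 7 were higher and 1 lower. Clec4a2 was at 3.03 with the mean of its probes and at 4.37 by its intron-crossing probe alone, chosen after seeing the data, and Ly75 was at 2.65 with the mean of its probes. Dim signals limit what can be said of the 50 members not measured on both arrays. No paired analysis was possible because each genotype had 1 array.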
